A study of Mus musculus with 15 samples.

Results

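The genes described here are 37 genes of DNA replication and mitosis, taken as a fixed list of names from a table of 25206 probe sets, each labelled by the Entrez number of its gene. All 37 names matched 1 probe set. No rule on measured values picked the genes. The list was drawn up with earlier results of these data known, so it may not be independent of them. The samples were adipocytes sorted by flow cytometry from UCP1/Tomato mice aged 8 to 10 weeks and measured on 15 arrays in 5 groups.

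The WAT group (4 arrays) held white adipocytes of the inguinal depot that were negative for the UCP1(GFP) sorting marker, from mice given no drug. The BAT group (3 arrays) held marker-positive brown adipocytes of brown fat, also without treatment. The other groups were marker-positive cells of inguinal fat from treated mice. In the CL group (3 arrays) the drug was CL316243, which activates beta-adrenergic receptors. Mice of the RS group (2 arrays) were given roscovitine, which blocks cyclin-dependent kinases. The RG group (3 arrays) was treated with rosiglitazone, which activates the nuclear receptor PPARG. The labels describe the RS cells as brite and the CL and RG cells as beige. They name UCP1(GFP) as the gate but UCP1/Tomato as the mice, so which reporter was sorted is not settled. No marker-positive cells of untreated inguinal fat were among the samples used, so each comparison of a treated group with WAT changes the drug and the sorting gate together. The labels give no dose, treatment time or sex, and do not say whether arrays of a group came from separate animals, so the p-values rest on a spread among arrays that may be technical.

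Replication begins when the MCM helicase is loaded at origins, is then activated, and unwinds DNA ahead of polymerases held on the template by the PCNA clamp. Mitosis follows with chromosome condensation, attachment of kinetochores to the spindle and division of the cytoplasm. Mature adipocytes are regarded as cells that rarely divide, whereas progenitors, endothelial cells and macrophages of adipose tissue can. Many replication genes carry E2F sites near their start, and many mitotic genes carry a cell cycle genes homology region (CHR) together with CCAAT boxes.

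Values are log2 expression values with no detection calls. Array medians lay between 3.33 and 3.47, and arrays of 1 group correlated between 0.945 and 0.988 across probe sets. The standard deviation over probe sets was 1.91 to 2 in WAT and 1.65 to 1.85 in the other groups, so low values sat lower and high values higher in WAT. The 75th percentile of the arrays was 5.108 to 5.2 in WAT and 4.76 to 5.03 elsewhere. Olfactory and vomeronasal receptor genes, which are not known as adipocyte genes, show the low end. Their 1354 probe sets had array medians of 1.46 to 1.65 in WAT and 1.84 to 2.32 elsewhere. Brown adipocyte markers (6 genes) averaged 3.41 to 4.43 in WAT, 8.92 to 9.54 in BAT, 8.59 to 8.67 in CL, 6.33 to 6.53 in RS and 6.36 to 7.38 in RG. Ucp1, the gene named in the gate, is among the 6. Mature adipocyte markers (9 genes measured) averaged 8.18 to 10.5 on all arrays. WAT 4 stood apart, with the adiponectin gene Adipoq at 7.85, where WAT 1 to 3 ranged from 9.84 to 10.47. RS 3 had the lowest endothelial marker level of any array (4.39). Results that rest on either array are given without them where that changes a call.

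Promoter windows are shown here for 4 genes with clear decreases, 2 helicase subunits and 2 mitotic genes, because the motifs in them differ by role. Each window runs 5′ to 3′ on the gene's own strand from 250 bases before to 50 bases after the annotated start (RefSeq, GRCm38.p6). Capitals mark matches, on either strand, to the E2F core, the CHR or the CCAAT box, and matches may overlap. The E2F core was searched as TTCCCGC, its variant TTGGCGC, its variant TTCGCGC or its variant TTGCCGC. The CHR was searched as TTTGAA, and the box by the letters of its name, CCAAT.
Mcm5 (chr8:75109259-75109558, plus strand): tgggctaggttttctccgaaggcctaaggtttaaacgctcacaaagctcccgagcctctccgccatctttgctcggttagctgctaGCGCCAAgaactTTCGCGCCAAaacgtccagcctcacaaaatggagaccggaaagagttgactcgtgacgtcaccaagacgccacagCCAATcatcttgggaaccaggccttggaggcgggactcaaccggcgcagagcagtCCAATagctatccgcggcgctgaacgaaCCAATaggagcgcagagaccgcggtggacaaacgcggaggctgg
Mcm6 (chr1:128359656-128359955, minus strand): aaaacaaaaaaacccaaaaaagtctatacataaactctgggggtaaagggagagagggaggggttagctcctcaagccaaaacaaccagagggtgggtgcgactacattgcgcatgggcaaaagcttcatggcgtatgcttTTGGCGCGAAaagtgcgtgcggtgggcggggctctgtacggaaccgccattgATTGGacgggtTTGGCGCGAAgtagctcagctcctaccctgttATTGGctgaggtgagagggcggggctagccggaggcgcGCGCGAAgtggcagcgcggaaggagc
Kif23 (chr9:61946750-61947049, minus strand): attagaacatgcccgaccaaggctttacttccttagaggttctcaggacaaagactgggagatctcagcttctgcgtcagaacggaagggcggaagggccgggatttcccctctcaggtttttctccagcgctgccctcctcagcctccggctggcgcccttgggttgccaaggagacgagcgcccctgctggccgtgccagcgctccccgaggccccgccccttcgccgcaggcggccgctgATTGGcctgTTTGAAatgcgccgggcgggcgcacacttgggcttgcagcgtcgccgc
Cenpa (chr5:30666636-30666935, plus strand): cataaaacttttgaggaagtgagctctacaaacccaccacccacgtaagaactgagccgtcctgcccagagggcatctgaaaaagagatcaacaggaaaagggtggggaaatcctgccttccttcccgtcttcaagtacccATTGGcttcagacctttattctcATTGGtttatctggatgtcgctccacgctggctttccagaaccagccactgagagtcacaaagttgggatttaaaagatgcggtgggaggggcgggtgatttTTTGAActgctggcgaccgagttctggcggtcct

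Mcm5 held 3 E2F core matches and 3 CCAAT boxes, and Mcm6 held 5 and 2. Neither held a CHR. Kif23 held 1 CHR and 1 CCAAT box, and Cenpa 1 and 2, with no E2F core match in either. Not every gene called lower showed this contrast. Pcna held no E2F core match, and Mki67 held 1 beside 2 CHR matches. Promoter windows were given for 33 of the 37 genes (36 windows). The E2F core was found for 7 of 10 replication genes and 5 of 23 chromosome and mitosis genes. CHR matches ran the other way, with 1 of 10 replication genes and 18 of 23 chromosome and mitosis genes. CCAAT boxes were found for 8 of 10 and 18 of 23. Among all 32851 windows of the same length, 9.57% held the E2F core, 17.9% the CHR and 37.4% a CCAAT box. Over the 36 windows of the listed genes these shares were 38.9%, 58.3% and 80.6%. These matches describe letters in a window and were not set against the expression tests.

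Most of the 37 genes had low signals. On all 15 arrays, 6 lay above the array median, 13 lay at or below it, and 18 crossed it. The 6 were Pcna, the sliding clamp, Tyms, thymidylate synthase, Rrm1, the large subunit of ribonucleotide reductase, the helicase subunit Mcm4, the condensin subunit Ncapd2, and Cdc20, an activator of the anaphase-promoting complex. Pcna ranked between the 97.1 and 99.5 percentile of its arrays and Tyms between 76.5 and 84.2. Mcm4 came next by its mean, between 58.4 and 76.1. The gene nearest above the median was Aurkb, a kinase of the chromosomal passenger complex, at 0.26 on average. The nearest below it were Rrm2, the small subunit of ribonucleotide reductase, at -0.23 and the mitotic kinase gene Aurka at -0.24.

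The number of genes above the array median differed by group. It was 15 to 20 on the WAT arrays, 10 to 12 in BAT, 13 to 16 in CL, 13 on each RS array and 12 to 14 in RG. In the count that requires every array of a group, 15 genes were above the median in WAT, 8 in BAT, 11 in CL, 12 in RS and 11 in RG. Such a requirement is easier to meet with fewer arrays (2 in RS, 4 in WAT). Counts of this kind therefore do not compare directly across groups. The 95th percentile of the receptor probe sets, a stricter reference chosen after the values were seen, lay at 3.01 to 3.13 in WAT and 3.29 to 3.7 elsewhere. On every array of the group, 16 genes exceeded it in WAT, 6 in BAT, 11 in CL, 7 in RS and 10 in RG. Cdc20, Mcm4, Ncapd2, Pcna and Tyms exceeded it on all 15 arrays, and 13 genes on none. For genes within the receptor range, a lower level cannot be told from the floor, and a fold change of a gene that falls into that range may be understated.

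**Figure D1:**
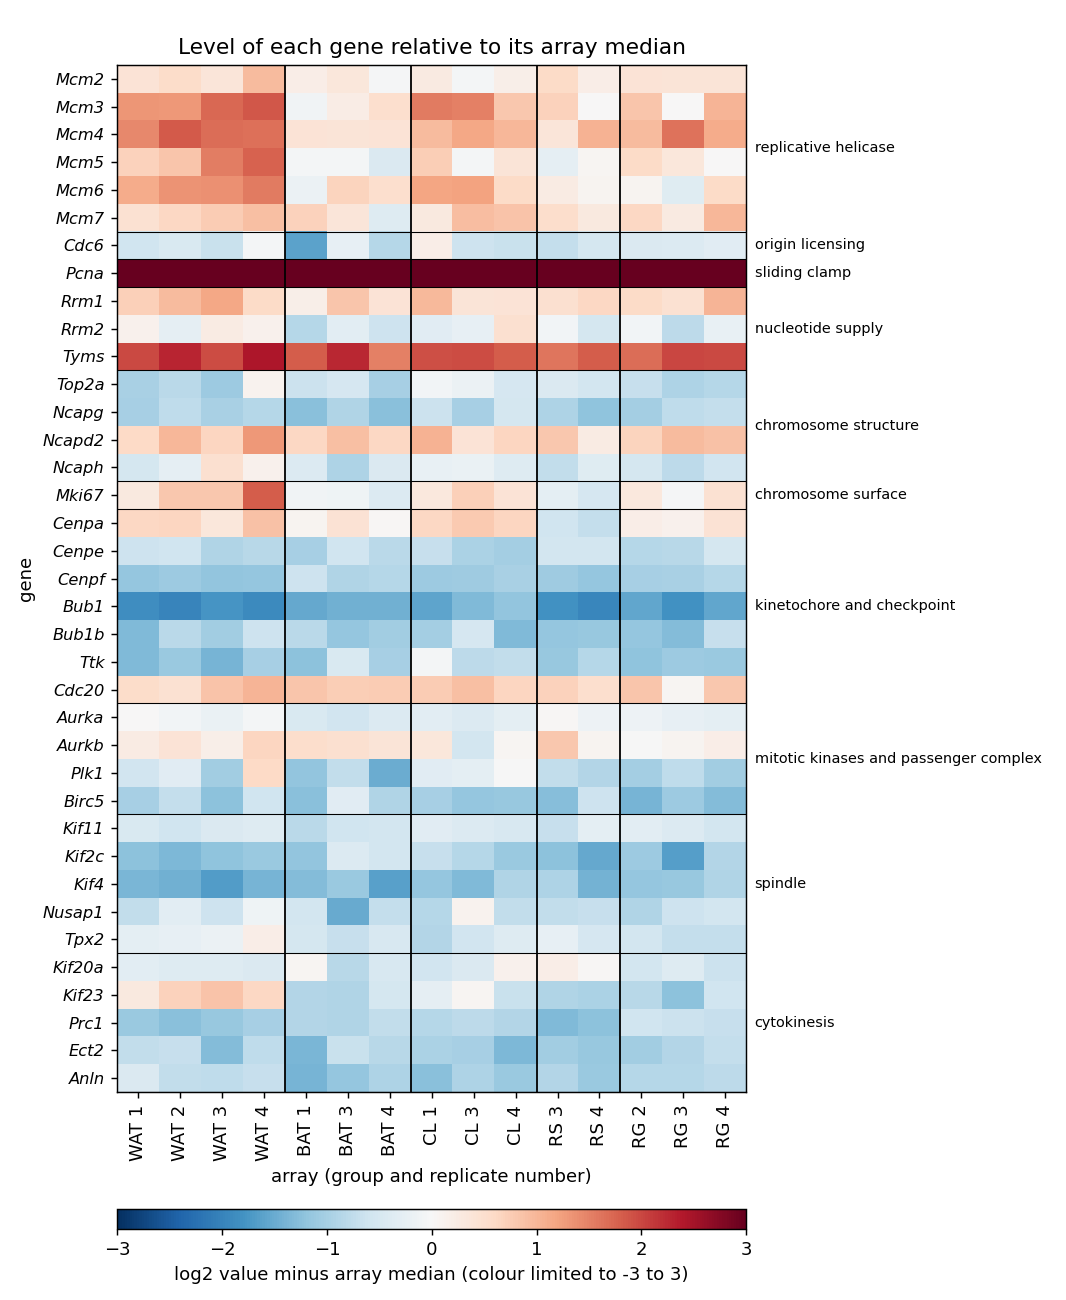
Level of the 37 genes (rows, ordered by role) on the 15 arrays (columns, ordered by group) as log2 value minus the array median, with red above and blue below it and colour limited to -3 to 3. Pcna and Tyms are red throughout, Mcm3, Mcm4, Mcm5 and Mcm6 have their highest group mean in WAT, and 13 genes are blue on every array.

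Low levels were more common among mitosis genes, though the roles overlapped. Among the 11 replication genes none lay below the array median on all arrays, while among the 26 chromosome and mitosis genes 13 did. These were 5 of 7 kinetochore and checkpoint genes, 3 of 5 spindle genes, 3 of 5 cytokinesis genes, 1 of 4 chromosome structure genes and 1 of 4 mitotic kinase and passenger complex genes. The lowest was Bub1, a spindle checkpoint kinase, with a mean of 1.745. Top2a, topoisomerase II alpha, lay above the array median on 1 array, WAT 4, at 3.44, and between 2.27 and 3.34 on the others. Plk1, the polo-like kinase of mitotic entry, was also above its array median on WAT 4 alone, at 3.92, and reached 3.4 at most elsewhere.

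The helicase subunits showed the clearest group pattern. Of the 6 subunits, 4 fell in BAT, 1 in CL, 4 in RS and 3 in RG relative to WAT, and none rose. Over all probe sets 16.4%, 9.97%, 10.3% and 6.24% were lower, so the 1 of 6 in CL is close to the background. All 6 subunits had means above the mean array median. Among all probe sets above that level the shares lower were larger, at 30.7%, 18.1%, 19.1% and 11.1%. The 6 subunits had median log2 differences from WAT of -1.03, -0.34, -0.99 and -0.64. Over all probe sets above that level the medians were -0.2, -0.11, -0.17 and -0.03. Mcm3 was 4.68, 4.67, 5.09 and 5.2 in WAT 1 to 4, and 3.36, 3.64 and 3.97 in BAT. It stood at 4.99, 4.9 and 4.21 in CL, 4.08 and 3.47 in RS, and 4.21, 3.39 and 4.36 in RG. BAT, RS and RG lay wholly below WAT, whereas CL overlapped it. Mcm3 was 2.38-fold lower in BAT (log2 difference -1.25 ± 0.266, SE, n = 3 and 4, limma adjusted p = 0.00202), 2.2-fold lower in RS (adjusted p = 0.0171) and 1.9-fold lower in RG (adjusted p = 0.037). In CL its log2 difference was -0.21 (adjusted p = 0.584). The RS call was lost without RS 4 and the RG call without any of 5 single arrays. Both were also lost after quantile normalization (adjusted p = 0.0705 and 0.115).

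Mcm4 was 4.79, 5.19, 5.04 and 4.98 in WAT and 3.87, 3.81 and 3.88 in BAT. It was 4.39, 4.56 and 4.41 in CL, 3.76 and 4.51 in RS, and 4.33, 5.01 and 4.47 in RG. The BAT arrays were tightly grouped (SD 0.0379, n = 3), and only RG overlapped WAT. Mcm4 fell 2.21-fold in BAT (adjusted p = 0.000463) and 1.82-fold in RS (adjusted p = 0.0143, lost without RS 3 and after quantile normalization). The log2 differences in CL and RG were -0.55 (adjusted p = 0.0507) and -0.4 (adjusted p = 0.194). Mcm4 was also higher in RG than in BAT by 0.75 log2 units (adjusted p = 0.0277), the only gene of the list called between these groups, where 5.85% of all probe sets were higher. That call was lost on leaving out any BAT array or RG 3, and after quantile normalization.

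Mcm5 was 4.04, 4.2, 4.9 and 5.09 in WAT, 3.42, 3.36 and 3.04 in BAT, and 3.13 and 3.52 in RS. Its values were 4.18, 3.33 and 3.8 in CL and 3.95, 3.72 and 3.37 in RG. BAT, RS and RG lay below all WAT arrays, and CL 1 exceeded WAT 1. The gene fell 2.44-fold in BAT (log2 difference -1.28 ± 0.264, SE, adjusted p = 0.00168), 1.73-fold in CL (adjusted p = 0.0407), 2.35-fold in RS (adjusted p = 0.0116) and 1.84-fold in RG (adjusted p = 0.044). The CL call was lost on leaving out WAT 3, WAT 4, CL 3 or CL 4, the RG call without WAT 3, WAT 4 or any RG array, and the RS call without RS 3, so only the BAT call held over all single arrays left out. After quantile normalization the CL and RG calls were lost as well (adjusted p = 0.13 and 0.111).

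Mcm6 was 4.48, 4.7, 4.74 and 4.9 in WAT, 3.3, 4.09 and 3.98 in BAT, and 4.62, 4.6 and 3.98 in CL. RS stood at 3.64 and 3.55, and RG at 3.46, 3.01 and 3.92. The RS and RG arrays all lay below the WAT arrays, as did BAT, whereas CL 1 and CL 3 lay within their range. It was 2.36-fold lower in RG (limma adjusted p = 0.00547, with a log2 difference of -1.24 ± 0.238, SE), 2.16-fold lower in RS (adjusted p = 0.0115, lost without RS 4) and 1.89-fold lower in BAT (adjusted p = 0.00683). In CL the log2 difference was -0.3 (adjusted p = 0.358), and CL exceeded RG by 0.94 log2 units without passing the test (adjusted p = 0.0589).

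Mcm2 and Mcm7, which share a ring with the other subunits, were not called in any comparison. Mcm2 differed from WAT by -0.37 to -0.11 log2 units and Mcm7 by -0.37 to 0.06. Mcm2 ranged from 3.35 to 4.28 over all arrays and Mcm7 from 3.09 to 4.35. Their 95% intervals reached down to -0.72 for Mcm2 (in CL) and -0.88 for Mcm7 (in BAT), so smaller decreases are not shown to be absent. Whether the subunits differ from each other in their change was not tested.

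**Figure D2:**
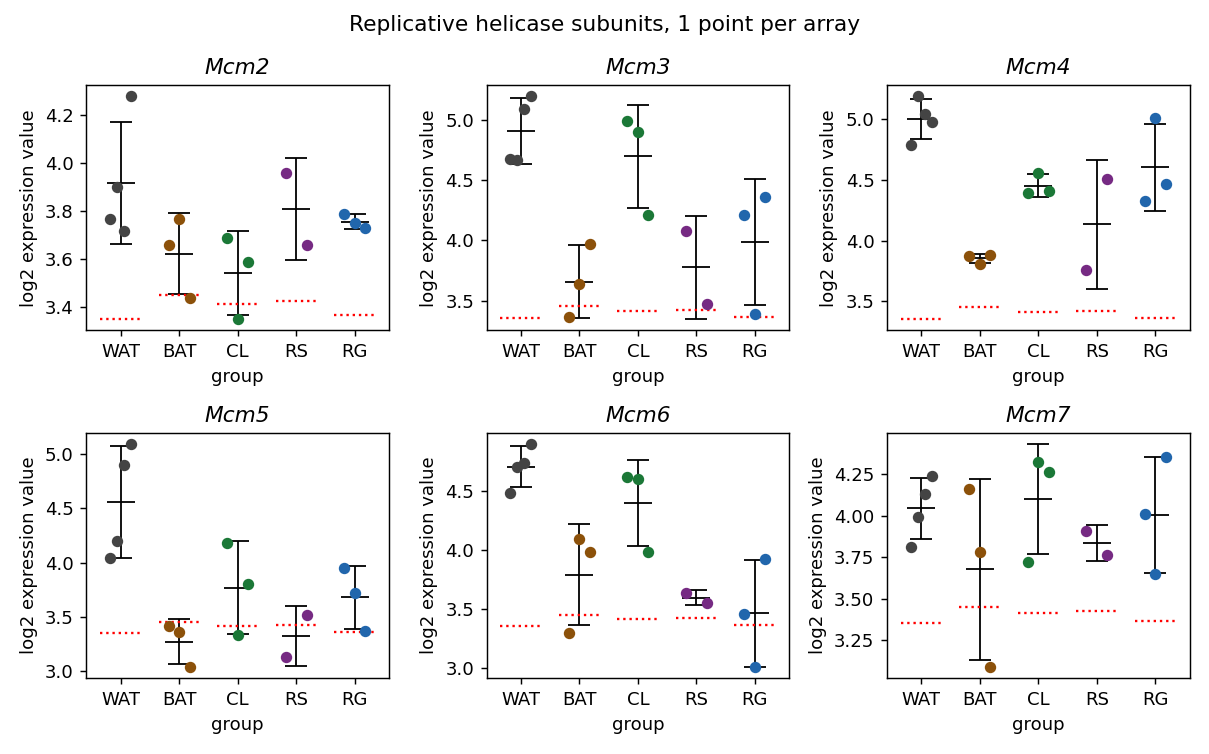
Log2 expression values of the 6 helicase subunits by group, 1 point per array, with bars for the group mean ± SD and red dotted lines for the mean array median of the group. Mcm3, Mcm4, Mcm5 and Mcm6 are highest in WAT, with BAT below all WAT arrays, while Mcm2 and Mcm7 overlap between most groups.

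Pcna fell in every group relative to WAT while remaining among the strongest signals. It was 9.18, 9.49, 9.42 and 9.2 in WAT, 8.28, 8.25 and 9.17 in BAT, and 8.53, 8.74 and 8.07 in CL. RS stood at 7.91 and 8.23, and RG at 8.2, 8.58 and 8.37. No array outside WAT reached the lowest WAT value, although BAT 4 came within 0.01 of it. The decrease was 2.38-fold in RS (limma adjusted p = 0.00482, with a log2 difference of -1.25 ± 0.255, SE, over 2 and 4 arrays), 1.92-fold in RG (adjusted p = 0.016), 1.84-fold in CL (adjusted p = 0.0122) and 1.69-fold in BAT (adjusted p = 0.0142). Calls were lost without BAT 1 or BAT 3, without CL 4, and without RG 2 or RG 4. The RS call was lost when WAT 4 and RS 3 were both left out.

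None of the genes that supply nucleotides was called in the deposited values. Tyms, which makes thymidylate, was 5.34, 5.65, 5.32 and 5.75 in WAT, 5.28, 5.67 and 4.99 in BAT, and 5.37, 5.35 and 5.22 in CL. It was 5 and 5.28 in RS and 5.05, 5.38 and 5.33 in RG. Only the RS arrays lay below all WAT arrays. Tyms differed from WAT by -0.38 (RS) to -0.2 (BAT and CL) log2 units. Rrm1 was 4.07, 4.3, 4.53 and 3.9 in WAT, 3.65, 4.25 and 3.88 in BAT, and 4.4, 3.78 and 3.81 in CL. It was 3.88 and 4.07 in RS and 3.96, 3.83 and 4.38 in RG, and its groups overlapped throughout, with log2 differences from WAT of -0.27 to -0.14. For Rrm1 in BAT the 95% interval of the difference ran from -0.73 to 0.18, so a modest decrease is not shown to be absent. Rrm2 had log2 differences of -0.55 to -0.03 and Cdc6, which loads the helicase, of -0.36 to 0.14, and neither was called. After quantile normalization Rrm2 was called lower in BAT (log2 difference -0.74, limma adjusted p = 0.0365).

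Kif23 gave the steadiest decrease of the list. Kif23 encodes a kinesin of the centralspindlin complex, which organises the midzone between separating chromosomes. It was 3.66, 4.06, 4.21 and 3.96 in WAT and 2.6, 2.52 and 2.95 in BAT. CL stood at 3.16, 3.45 and 2.75, RS at 2.48 and 2.51, and RG at 2.54, 2.13 and 2.76. All WAT arrays lay above their array median and above every other array. CL 3 came closest and was the only other array above its median. Kif23 fell 2.82-fold in RG (limma adjusted p = 0.000636, with a log2 difference of -1.5 ± 0.202, SE, over 3 and 4 arrays), 2.78-fold in RS (adjusted p = 0.00101), 2.43-fold in BAT (adjusted p = 0.000276) and 1.81-fold in CL (adjusted p = 0.00822). These 4 calls held with every single array left out and after median centring or quantile normalization. Kif23 was within the receptor range in all BAT, RS and RG arrays, so these folds may be understated.

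Mki67, the chromosome surface protein used as a proliferation marker, was 3.66, 4.16, 4.16 and 5.14 in WAT and 3.37, 3.28 and 3.06 in BAT. It was 3.74, 4.12 and 3.83 in CL, 3.1 and 2.96 in RS, and 3.69, 3.34 and 3.81 in RG. BAT and RS lay below every WAT array, whereas CL and RG overlapped WAT 1. The gene was 2.38-fold lower in RS (log2 difference -1.25 ± 0.293, SE, adjusted p = 0.00986, lost without RS 4) and 2.06-fold lower in BAT (adjusted p = 0.00521). The log2 differences in CL and RG were -0.38 (adjusted p = 0.285) and -0.67 (adjusted p = 0.106). RS arrays also lay below all CL and RG arrays in Mki67, without passing the test (log2 differences -0.87 and -0.58, adjusted p = 0.168 and 0.328).

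Cenpa, the histone H3 variant of centromeres, set RS apart. It was 2.8 and 2.75 in RS, and no other array fell below 3.49. WAT stood at 3.99, 4.01, 3.7 and 4.2, BAT at 3.56, 3.86 and 3.51, CL at 4.05, 4.18 and 4.05, and RG at 3.59, 3.49 and 3.78. Cenpa was the only gene of the list called in RS against CL (2.49-fold lower, log2 difference -1.32 ± 0.182, SE, n = 2 and 3, adjusted p = 0.00455). In that comparison 0.797% of all probe sets were lower and 0.476% higher. It was likewise the only one called in RS against RG (1.8-fold lower, adjusted p = 0.0493), where 0.337% of probe sets were lower and 0.345% higher, and in RS against BAT (1.83-fold lower, adjusted p = 0.0189), where 2.34% were lower and 1.33% higher. The RS against CL call held with each array left out (adjusted p = 0.0142 to 0.0326). The RS against RG call was lost without any single array of the 2 groups, and the RS against BAT call without either RS array or BAT 3. Against WAT, Cenpa was called in RS and in no other group, with log2 differences of -0.33 in BAT, 0.12 in CL and -0.35 in RG.

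**Figure D3:**
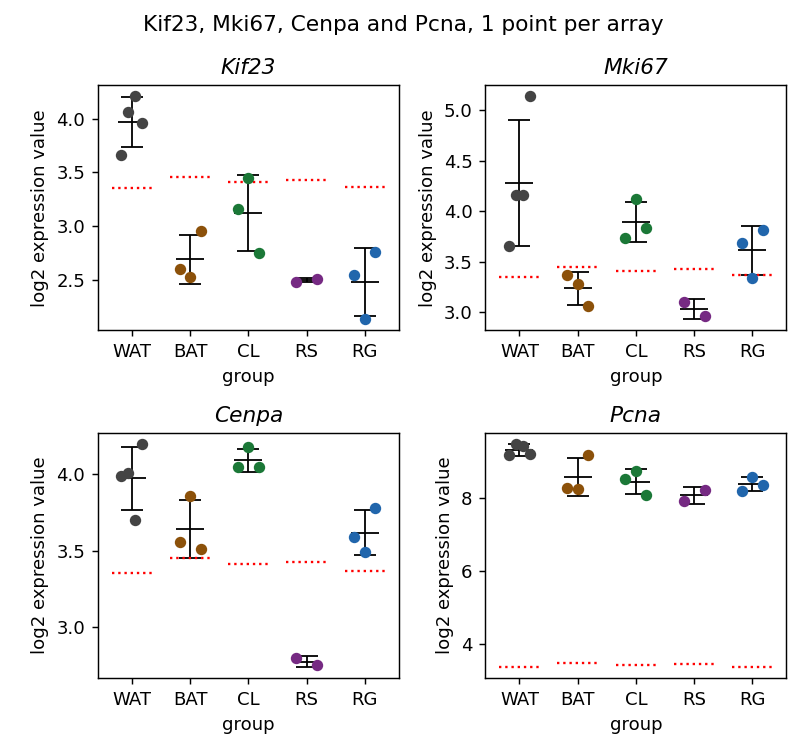
Log2 expression values of Kif23, Mki67, Cenpa and Pcna by group, 1 point per array, with bars for the group mean ± SD and red dotted lines for the mean array median of the group. Kif23 and Pcna are highest in WAT, Cenpa is lowest in RS at 2.8 and 2.75, and the highest Mki67 value is that of WAT 4 at 5.14.

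Among the other mitosis genes the calls were small and mostly upward. Bub1 was 1.49, 1.38, 1.59 and 1.41 in WAT, 1.93, 1.97 and 2.04 in BAT, and 1.84, 2.07 and 2.22 in CL. It was 1.58 and 1.51 in RS and 1.81, 1.55 and 1.79 in RG. Bub1 was called higher in BAT (log2 difference 0.51 ± 0.138, SE, adjusted p = 0.00837) and CL (0.58, adjusted p = 0.00874), with BAT and CL above every WAT array, but at levels between the 2.66 and 14.5 percentile of the arrays. Cenpf, a kinetochore protein, was 2.19, 2.28, 2.18 and 2.17 in WAT, 2.85, 2.52 and 2.62 in BAT, and 2.31 to 2.5 on all other arrays. It was called higher in BAT by 0.46 (adjusted p = 0.0103), a call lost without BAT 1 (adjusted p = 0.0536).

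Kif2c, a kinesin that depolymerises microtubules, was 2.12, 2.01, 2.16 and 2.21 in WAT, 2.29, 3 and 2.92 in BAT, and 2.74, 2.54 and 2.29 in CL. RS stood at 2.15 and 1.93 and RG at 2.29, 1.71 and 2.46. It was called higher in BAT by 0.61 (adjusted p = 0.0256), a call lost without WAT 2, BAT 3 or BAT 4. Ttk, the checkpoint kinase MPS1, was 2.04, 2.25, 1.96 and 2.34 in WAT and 3.37, 2.62 and 2.68 in CL. Ttk was 2.23, 2.97 and 2.48 in BAT, 2.25 and 2.61 in RS, and 2.17, 2.27 and 2.24 in RG. It was called higher in CL by 0.74 (adjusted p = 0.0188), which rested on CL 1 (adjusted p = 0.101 without it).

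Prc1, which bundles midzone microtubules, was 2.25, 2.11, 2.22 and 2.34 in WAT, 2.58, 2.52 and 2.74 in BAT, and 2.57, 2.62 and 2.52 in CL. It was 2.07 and 2.24 in RS and 2.79, 2.73 and 2.67 in RG. It was called higher in BAT by 0.38 (adjusted p = 0.025) and in RG by 0.5 (adjusted p = 0.0219), the opposite direction from the midzone gene Kif23 in both groups. The BAT call was lost without WAT 2 or BAT 4, and the RG call without WAT 2 or any RG array. Anln, the scaffold protein anillin of the cleavage furrow, was 2.92, 2.61, 2.6 and 2.63 in WAT, 2.08, 2.27 and 2.54 in BAT, and 2.18 to 2.56 elsewhere. It was called lower in BAT by 0.39 on the log2 scale (log2 difference -0.39, adjusted p = 0.0436), and the call was lost on leaving out any WAT array, BAT 1 or BAT 3. After quantile normalization the difference in BAT was larger (-0.79, limma adjusted p = 0.00192). Anln was then also called lower in CL (-0.62, limma adjusted p = 0.0158).

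All 5 genes called higher in any group had means below the array median, where low values rose as a whole. The receptor probe sets had median log2 differences from WAT of 0.63 in BAT, 0.48 in CL, 0.44 in RS and 0.27 in RG. After quantile normalization these medians were 0.18, 0.14, 0.12 and 0.07, and none of the 5 genes was called higher. Bub1 then had a log2 difference of -0.02 in BAT and Prc1 of -0.03, a change of sign. Cenpf stood at 0.05 and Kif2c at 0.21 in BAT, Bub1 at 0.18 and Ttk at 0.47 in CL, and Prc1 at 0.32 in RG. Kif23 kept log2 differences of -1.39 in BAT, -0.81 in CL, -1.5 in RS and -1.37 in RG under the same scaling.

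**Figure D4:**
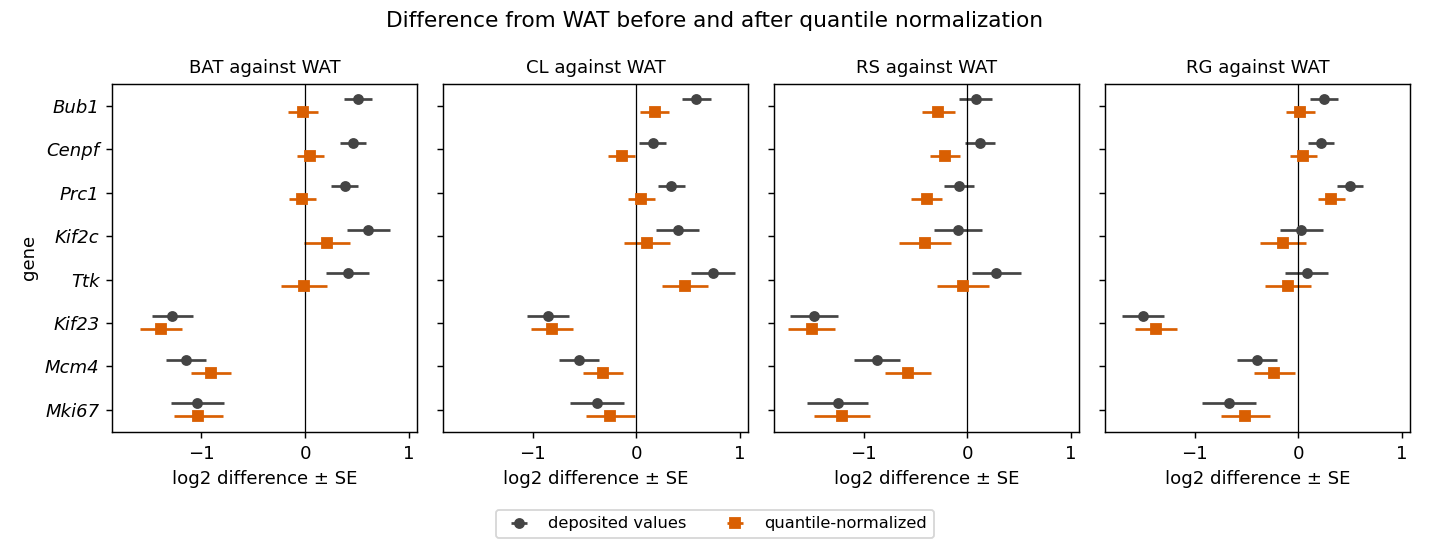
Log2 difference from WAT ± SE in the deposited values (circles) and after quantile normalization (squares) for 5 genes called higher in some group (Bub1, Cenpf, Prc1, Kif2c, Ttk) and 3 called lower (Kif23, Mcm4, Mki67). Bub1 in BAT moves from 0.51 to -0.02, whereas Kif23 in BAT moves from -1.28 to -1.39.

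The 23 genes called in none of the 6 main comparisons (WAT with each of the other groups, and RS with CL and with RG) had log2 differences between -0.69 and 0.7, with a smallest adjusted p of 0.0509. Besides the replication genes above they included the motor Kif11, the spindle assembly factor Tpx2, the aurora kinases Aurka and Aurkb, and the survivin gene Birc5. After quantile normalization 6 of the 23 were called lower in BAT: Rrm2, Ncapg, Ncaph, Aurka, Plk1 and Tpx2, with log2 differences of -0.99 (Plk1) to -0.51 (Aurka). Tpx2 was then also called in CL and RG (-0.54 in both). Of all 25206 probe sets, 2914 were lower in BAT with that normalization. In the deposited values the largest decrease among them was that of Plk1 in BAT (-0.69, adjusted p = 0.059). Top2a had a log2 difference of 0.5 in CL (adjusted p = 0.126). Cdc20 was 3.9, 3.81, 4.21 and 4.34 in WAT, 4.31, 4.15 and 4.24 in BAT, and 4.2, 4.31 and 4.05 in CL. It was 4.07 and 3.96 in RS and 4.22, 3.44 and 4.17 in RG, and differed from WAT by -0.12 to 0.17 with overlap in every group. Ncapd2 was 3.96, 4.35, 4.01 and 4.63 in WAT, 4.09, 4.33 and 4.08 in BAT, and 4.47, 3.81 and 4.06 in CL. It was 4.2 and 3.71 in RS and 4.05, 4.33 and 4.22 in RG, with differences from WAT of -0.28 to -0.04.

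Counted over the list, 8 of the 37 genes were lower in BAT than in WAT (21.6%) and 4 higher (10.8%). Over all probe sets 16.4% were lower and 27.6% higher. The counts in BAT became 13 lower and 2 higher with median centring, where 4880 of 25206 probe sets were lower and 5192 higher. They became 14 and 0 with quantile normalization, where 2914 and 3306 were. In CL, 3 were lower (8.11%) and 2 higher (5.41%), against 9.97% and 15.2% of all probe sets. In RS, 8 were lower (21.6%) and none higher, against 10.3% and 11.1%. In RG, 5 were lower (13.5%) and 1 higher (2.7%), against 6.24% and 5.19%. Kif23, Mcm5 and Pcna were lower in all 4 groups. The list's median log2 differences were -0.27, -0.1, -0.15 and -0.14 in BAT, CL, RS and RG, beside 0.18, 0.13, 0.13 and 0.1 over all probe sets. These 4 comparisons share the WAT arrays, so their calls are not independent of each other. The share lower in CL was near that of all probe sets. Without both WAT 4 and RS 3, 4 genes were lower in RS (Mcm3, Mki67, Cenpa and Kif23) and 3 in RG (Mcm6, Pcna and Kif23). Of all 25206 probe sets, 1214 were then lower in RS and 1267 in RG.

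The counts differed by level. Among the 14 genes with a mean above the mean array median, 6 were lower in BAT, 2 in CL, 7 in RS and 4 in RG. As shares these are 42.9%, 14.3%, 50% and 28.6%, against 30.7%, 18.1%, 19.1% and 11.1% of all probe sets above that level. Among the 23 genes at or below it, 2 were lower in BAT and 1 in each of CL, RS and RG. Of all probe sets at or below that level, 2.41%, 1.95%, 1.64% and 1.5% were lower. None of the 14 genes was higher in any group, where 12.5%, 8.44%, 4.41% and 6.21% of all probe sets above the level were. Of the 23 genes, 4, 2, 0 and 1 were higher, beside 42.4%, 21.9%, 17.6% and 4.18% of all probe sets at or below it.

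**Figure D5:**
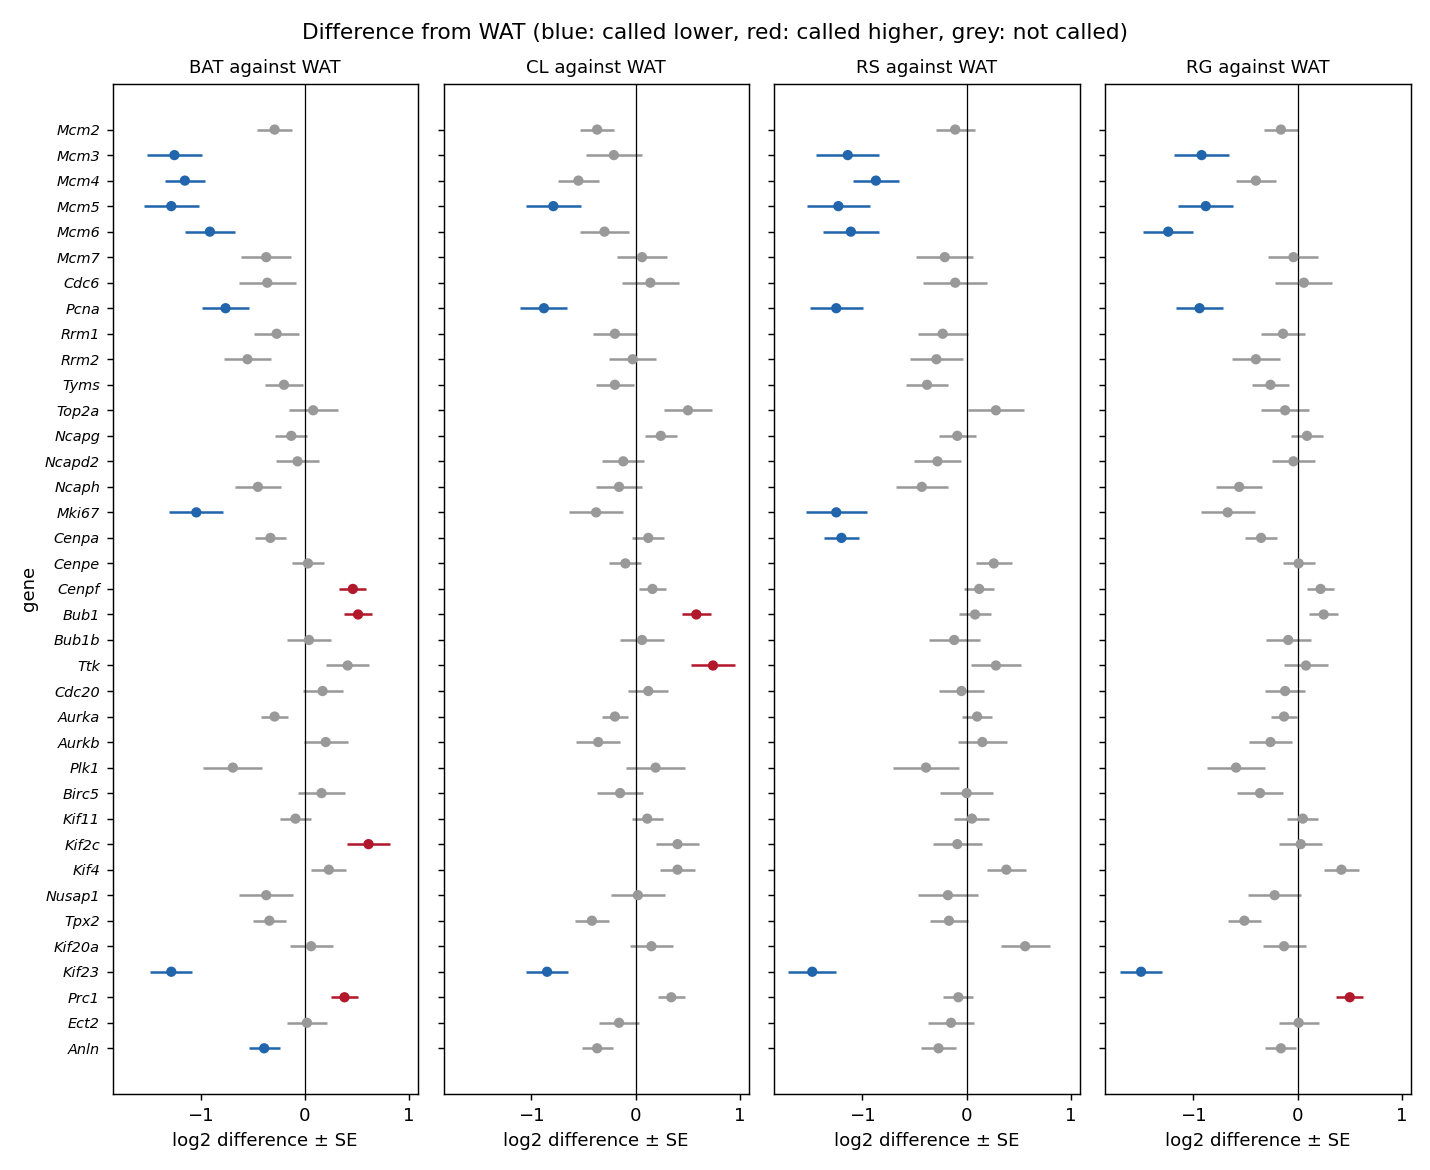
Log2 difference from WAT ± SE of the 37 genes in the 4 groups, with genes called lower in blue, called higher in red and not called in grey (limma, adjusted p under 0.05 over all probe sets). Kif23, Mcm5 and Pcna are blue in all 4 panels, and Cenpa is blue in RS alone.

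Differences among the marker-positive groups were few. No gene of the list was called between CL and RG by limma, where 1.22% of all probe sets were lower and 1.65% higher in CL. An unadjusted p under 0.05 was found for 8 of the 37 genes, beside 4896 of all 25206 probe sets. None was called between CL and BAT either, beside 1.42% and 0.635% of all probe sets. There 9 of the 37 genes had an unadjusted p under 0.05, beside 4761 of the 25206 probe sets. In RG against BAT the only call was Mcm4, and none was lower, beside 8.42% of all probe sets. Mcm3 was higher in CL than in BAT by 1.04 log2 units with no overlap, short of the threshold (adjusted p = 0.067). Of the 37 genes, 15 had their highest group mean in WAT, 11 in CL, 6 in BAT, 3 in RS and 2 in RG. The same order was not counted over all probe sets.

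Other genes of the pathway were taken from lists of names chosen with earlier results known. Of 54 further replication genes, 11 were lower and 3 higher in BAT, 6 and 0 in CL, 9 and 0 in RS, and 4 and 1 in RG, with median log2 differences of -0.19, -0.05, -0.17 and -0.05. The shares lower were 20.4%, 11.1%, 16.7% and 7.41%, near the 16.4%, 9.97% and 6.24% of all probe sets in BAT, CL and RG, and beside 10.3% in RS. After quantile normalization the counts lower were 9, 2, 1 and 1. Of all 25206 probe sets, 2914, 1548, 1304 and 1058 were then lower, against 4146, 2512, 2601 and 1574 in the deposited values. Lig1, the ligase that joins Okazaki fragments, was 4.73 to 5.36 in WAT and 3.52 to 4.47 on all other arrays, and was lower in all 4 groups by 1.14 (BAT), 0.92 (CL), 1.05 (RS) and 0.9 (RG) log2 units. Dbf4, the activator of the kinase that fires origins, was called lower in all 4 as well, most in RG (log2 difference -1.26 ± 0.218, SE, adjusted p = 0.00312). Pola1, the catalytic subunit of the priming polymerase, fell in BAT, CL and RS but was not called in RG.

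Gmnn, geminin, which blocks reloading of the helicase, went the other way in BAT. It was 5.82, 6.52 and 5.24 in BAT against 4.04 to 4.39 in WAT, higher by 1.61 log2 units (adjusted p = 0.00113), and CL 1, at 5.39, was the only other array within the BAT range. RG stood at 3.68, 3.13 and 4.52, of which the first pair were the lowest of all arrays, and was lower than BAT by 2.08 log2 units (log2 difference -2.08, adjusted p = 0.00187).

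Of 59 further mitosis genes, 3 were lower and 8 higher in BAT, 3 and 7 in CL, 2 and 3 in RS, and 0 and 1 in RG. The shares higher, 13.6%, 11.9%, 5.08% and 1.69%, were below the 27.6%, 15.2%, 11.1% and 5.19% of all probe sets. After quantile normalization the counts were 9 and 3, 4 and 1, 1 and 2, and 0 and 0, so the balance of directions in BAT and CL turned with the scaling. Of all 25206 probe sets, 2914 were then lower and 3306 higher in BAT, and 1548 and 1604 in CL. In RS these were 1304 and 1151, and in RG 1058 and 969. Cks1b, a small partner of cyclin-dependent kinases, was 4.92, 5.7 and 4.45 in BAT and 5.95 to 7.1 on all other arrays. It was lower in BAT than in WAT by 1.57 log2 units (log2 difference -1.57, adjusted p = 0.000501), and higher in CL, RS and RG than in BAT by 1.79, 1.87 and 1.16. Sgo2a, which protects centromeric cohesion, was called higher in BAT, CL and RS by 1.12, 0.8 and 1.13. It was low throughout, at 2.2 to 2.56 in WAT and 2.83 to 3.96 in these groups. The 95th percentile of the receptors there was 3.38 to 3.7, and their median log2 differences from WAT were 0.63, 0.48 and 0.44.

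Macrophage, stromal and mast cell markers were also lower in the marker-positive groups, while other marker lists differed. All 9 measured macrophage markers were lower in BAT, CL and RS than in WAT and 8 of 9 in RG. Their mean level was 7.14 to 8.34 in WAT, 4.79 to 5.23 in BAT, 4.92 to 5.68 in CL, 4.34 to 4.9 in RS and 4.76 to 5.97 in RG, with no overlap between WAT and any other group. Stromal and preadipocyte markers (8 genes) averaged 7.25 to 9.04 in WAT and 5 to 7.02 elsewhere, and 8, 5, 7 and 3 of them were lower in BAT, CL, RS and RG. Endothelial markers were lower in 0, 0, 5 and 1 of 8 genes in the same order by limma, with levels of 6.44 to 7.87 in WAT, 6.59 to 8.19 in BAT and CL, 4.39 to 6.58 in RS and 5.45 to 6.82 in RG. Mast cell markers fell in 4, 3, 4 and 5 of 5 genes. Lymphocyte markers (7 genes) were lower in 1, 0, 0 and 0 and neutrophil markers (5 genes) in none by limma, with an unadjusted p under 0.05 in at most 4 and 1 genes of these lists. A lymphocyte marker was higher in CL, and a neutrophil marker in BAT and in CL. Erythroid markers were higher in 3, 2, 1 and 0 of 5 genes, and mature adipocyte markers in 2, 2, 4 and 6 of 9. For the adipocyte markers the shares were 22.2%, 22.2%, 44.4% and 66.7%. Over all probe sets 27.6%, 15.2%, 11.1% and 5.19% were higher, and 16.4%, 9.97%, 10.3% and 6.24% lower. Among probe sets at or below the mean array median, 42.4%, 21.9%, 17.6% and 4.18% were higher. At most 2 of 5 erythroid markers lay above the array median on any WAT array.

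Calls of lower levels in the list thus stood beside lower macrophage, stromal and mast cell markers, although the sets differed by group: in CL, with all 9 macrophage markers lower, 3 genes of the list were called lower and Cenpa had a log2 difference of 0.12. The part of those cells in the result was not tested. The macrophage genes were not at the floor outside WAT: at least 7 of 9 lay above the array median on every array. Within WAT, WAT 4 had the highest macrophage (8.34) and stromal (9.04) levels and the lowest brown adipocyte level (3.41), and it was the highest of the 4 WAT arrays for 22 of the 37 genes. WAT 4 also had the widest spread of values of any array (SD 2). The share of all probe sets highest in WAT 4 was not counted, so the 22 cannot be read as particular to the list. In these bulk samples, fewer cells of a type and less RNA per cell cannot be told apart.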

How the data were processed

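Expression of sorted mouse adipocytes was measured on 15 Affymetrix arrays from small amounts of total RNA. The deposited values are log2 expression values, made by the authors with RMA. Affymetrix Expression Console and affy 1.36.1 are the tools listed beside RMA, per the submitters' processing notes. The genome build is not given in the sources used here. Of 25206 probe sets, 2021 had no symbol in the platform annotation and were kept in all fits.

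A linear model with 1 mean per group was fitted to all 15 arrays in limma 3.58.1 (R 4.3.3), and p-values of each comparison were adjusted by Benjamini-Hochberg across every probe set. A gene was called at an adjusted p under 0.05. The fit was tested on simulated data. The array median and olfactory and vomeronasal receptor probe sets served as references for level, and the number of arrays limits the precision. Values for each array are given for genes called in at least 1 of the 6 main comparisons and for genes above the median on all arrays. From the further pathway lists, only called genes with the smallest p are named.

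The genes, lists and comparisons were chosen with earlier results of these data known. Alternatives were median centring, quantile normalization, a filter on low values, an intensity trend with a robust prior, the replicate number as a block, and leaving out arrays. The 95th percentile of the receptors was added after seeing the data. Deviations of same-numbered arrays from their group means correlated negatively in all 24 pairs (-0.88 to -0.05). Over all probe sets they did not deviate in the same direction, so the numbers were not used as pairs. Negative correlations throughout do not show that such arrays were unrelated. Macrophage and stromal marker means were highest in number 3 and lowest in number 4 in BAT, CL and RG. For macrophage markers these were 5.23 and 4.79 in BAT, 5.68 and 4.92 in CL, and 5.97 and 4.76 in RG. WAT and RS went the other way, with number 4 above number 3. Whether the arrays share some other structure was not tested.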

Additional observations from a re-analysis of the deposited data

Results flagged for a closer look

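Of 46 sets of values over the 4 WAT arrays, 3 had 1 array far from the others, and chance alone gives about 1 in 20. Anln in WAT 1 was 2.92, against 2.6 to 2.63 in the other WAT arrays, a gap of 0.906 of the whole range. The mean of the brown adipocyte markers in WAT 4 was 3.41, against 4.29 to 4.43. The mean of the erythroid markers in WAT 4 was 2.69, against 3.16 to 3.24.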

How the results depend on the processing

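Quantile normalization and the replicate block changed the calls most. With median centring, 13 genes were lower and 2 higher in BAT than in WAT, and 5 were lower in CL. With quantile normalization, 14 were lower and 0 higher in BAT, and 0 were higher in CL and 0 in RG. RS below RG and RG above BAT then each had 0 calls, and Bub1 (-0.02) and Prc1 (-0.03) in BAT changed sign. With low values left out, 0 were higher in BAT, CL or RG than in WAT, but the 5 genes called higher there lay below the filter. Their calls could therefore not be checked in this setting. Kif23 and Anln were below the filter as well. In the same setting 0 were lower in RS than in RG. With the intensity trend and robust prior, 0 were lower in RS than in RG. Without both WAT 4 and RS 3, 4 were lower in RS and 3 in RG than in WAT, 0 in RS than in RG or BAT, and 1 was higher in CL than in BAT. Of all 25206 probe sets, 1214 were then lower in RS and 1267 in RG than in WAT. RS was lower than RG in 183 and than BAT in 302, and CL was higher than BAT in 337.

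The replicate number as a block gave 1 gene higher in BAT, 1 lower and 0 higher in CL, 5 lower in RS, and 2 lower and 0 higher in RG than in WAT. Calls over all probe sets fell as well. In BAT 4319 were higher, and in CL 1225 were lower and 1236 higher, against 6950, 2512 and 3838 without the block. In RS 1313 were lower, against 2601, and in RG 782 were lower and 289 higher, against 1574 and 1308. For the listed genes the block gave 0 calls in RS against CL, RG or BAT and 0 in RG above BAT. Of all probe sets, it called 11 lower and 2 higher in RS against CL, and 45 and 27 in RS against BAT. It called 0 in RS against RG, and 154 higher in RG than in BAT. Over all probe sets, arrays with the same number did not deviate in the same direction. All pairs correlated negatively, and 0 of the arrays correlated best with their own number.

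Leaving out 1 array at a time gave, against WAT, 6 to 9 lower and 2 to 4 higher in BAT, 1 to 4 and 1 to 3 in CL, 5 to 8 and 0 in RS, and 2 to 7 and 0 to 1 in RG. RS below CL kept 1 call and RS below RG had 0. CL above RG, RS below BAT, RG below BAT and RG above BAT had 0 to 1. Calls over all probe sets were not counted with single arrays left out. Of 35 called differences, 21 kept direction and call with quantile normalization and 16 with the block.

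Over all probe sets in BAT, 4146 were lower and 6950 higher, against 4880 and 5192 with median centring and 2914 and 3306 with quantile normalization. In CL, 2829 were lower with median centring. With quantile normalization 1604 were higher in CL and 969 in RG than in WAT, 22 lower in RS than in RG, and 972 higher in RG than in BAT. RS below RG had 70 of 12601 with low values left out, and 82 with the intensity trend and robust prior. The cause of these changes was not tested. Signal near the receptor range limits the low genes.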
